A study of Mus musculus with 12 samples.

Results

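The genes described here are the Cyp2 and Cyp3a cytochrome P450 genes of the mouse, the 2 families that carry out most oxidation of drugs and other foreign compounds in the liver. They were chosen by name: every protein-coding gene whose symbol begins with Cyp2 followed by a subfamily letter, or with Cyp3a, was taken. This gave 59 genes among the 55357 gene identifiers of each count table. In the liver, 38 of them had at least 10 counts in at least 3 libraries, and exactly these 38 also passed the filter of the test. Of the other 21 members, 9 had no count in any liver library, 10 had 1 to 8 counts over all 6 libraries, and Cyp2g1 and Cyp2d12 had totals of 36 and 43 counts. A count of 0 in a liver library allows up to 3 counts, which is 0.148 to 0.195 CPM (counts scaled for library size) across the libraries.

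RNA sequencing was done on 12 libraries, 3 in each of 4 groups. The livers came from male WT mice of the strain C57BL6/J, 8 to 9 weeks old, which were given 2.5% Tween-80 alone (control) or esculetin at 90 mg/kg/d by gavage over 7 days. Both liver groups ate a diet with 10% of its energy from fat for 4 days and then a diet with 60% from fat for 3 days. By the legends of the study's supplementary figures, each liver library pooled a pair of mice. RAW264.7 cells, a WT macrophage line from the mouse, were held for 24 h with 25 µg/mL of fluorescent oxidized LDL (DIL-oxLDL) and either DMSO (control) or esculetin at 40 µg/mL. Esculetin is a plant coumarin with hydroxyl groups on its ring. No source used here says that the libraries of the cells came from separate cultures, so their p-values measure the spread between these samples, which may be technical.

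Cytochrome P450 enzymes of these families sit in the membrane of the endoplasmic reticulum and use a heme iron, oxygen and electrons from P450 oxidoreductase to insert an oxygen atom into lipophilic substrates. Drugs, plant compounds, steroids, retinoids, bile acids and arachidonic acid are all substrates of some member. In hepatocytes many of the genes are controlled by the nuclear receptors CAR and PXR, which respond to foreign compounds, by hepatic transcription factors such as HNF4A and C/EBP, and by the pulse pattern of growth hormone, which gives several members a male or female bias. The genes lie in clusters of close relatives that arose by duplication.

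The heme iron is held by a cysteine near the end of the protein. The sequences below are the coding bases of the loop around it, 10 codons each, read 5′ to 3′ from the GRCm39 genome with the exon parts joined; they are shown because they let the near-identical members be told from the others, and the capitals mark the codon of the heme-binding cysteine.
Cyp2c40, Cyp2c67, Cyp2c68 and Cyp2c69: ttctcagcaggaaaacggattTGTgtggga
Cyp2c70: ttctcagcaggaagaagagctTGTattgga
Cyp2c55: ttctcaataggaaagcgaatgTGCgtggga
Cyp2c29: ttttcaacaggaaaacggattTGTgctgga
Cyp2e1: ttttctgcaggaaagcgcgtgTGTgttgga
Cyp2a5: ttttccattggaaaacggtatTGTttcgga
Cyp2d26: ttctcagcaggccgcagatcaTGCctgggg
Cyp2u1: tttgggatagggaagcgggtgTGTatggga
Cyp3a11: tttgggaatggacccaggaacTGCcttggc
In the listed genes of the Cyp2 family this loop was split between 2 exons, and in Cyp3a11 it lay in 1 exon. Cyp2c40, Cyp2c67, Cyp2c68 and Cyp2c69 had the same 30 bases. Over the whole coding sequence Cyp2c40 was 98.1% identical to Cyp2c68, 97.9% to Cyp2c69 and 97.69% to Cyp2c67. Of the 150-base windows of their transcripts, 16.75% in Cyp2c40, 22.51% in Cyp2c69, 12.97% in Cyp2c67 and 8.528% in Cyp2c68 occurred unchanged in another gene, so reads of these 4 genes can be divided between them in ways the counting does not show, and their separate values are uncertain. Cyp2c70 and Cyp3a11 shared none of their windows with another gene.

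The libraries held 14659876 to 20346460 counts in the liver and 13752842 to 20001959 in the cells. Hepatocyte markers were high in all 6 liver libraries, with a summed level of 108466 to 138762 CPM, and 5 of these 8 markers had no count in the cells. All 8 markers of the macrophage line were present in the cells, at a summed 2318 to 2486 CPM in controls and 5652 to 8588 CPM with esculetin. The library of control replicate 1 stood apart in the liver: on the leading principal component, which held 39.9% of the variance, it lay at -47.9, against -3.44 to 19.4 for the other 5. It was the library with the lowest level for 20 of the 38 members and with the highest for 9. Results for a number of members are therefore given with and without it.

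Levels of different genes were compared as RPKM, the CPM scaled by TMM factors and divided by the exon length in kilobases. Cyp2e1, which oxidizes ethanol, acetaminophen and other small molecules, was the most abundant member in the liver, at 2200.0 ± 398 RPKM (SD over 6 libraries). Cyp2d26 (560.4 ± 34.3 RPKM) and Cyp2d9 (558 ± 120.4 RPKM), the latter a testosterone hydroxylase with male bias, came next and did not differ beyond their spread. They were followed by Cyp2f2, known for the activation of naphthalene, at 329 ± 35.8 RPKM, and by Cyp3a11, the main PXR target among the Cyp3a genes, at 302 ± 72.3 RPKM, which again lay within each other's spread. These means cover both groups, and where the groups differ the order depends on them: Cyp3a11 had 364 RPKM in controls and 239.6 RPKM with esculetin, against 313 and 345 RPKM for Cyp2f2.

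Cyp2c70, which hydroxylates bile acids to muricholic acids in mice, had 234 ± 118 RPKM over both groups, with 143 RPKM and rank 10 in controls and 326 RPKM and rank 5 with esculetin. Cyp2d10 (209 ± 21.4 RPKM), Cyp2a12 (194 ± 19.1 RPKM), Cyp2c29 (191 ± 24.1 RPKM) and Cyp2c50 (171 ± 28.2 RPKM) completed the 10 most abundant members, and neighbours in this order lay within their spread. At the other end, Cyp2c39 had 0.308 RPKM and Cyp2a4, a steroid hydroxylase known for female bias, 0.427 RPKM. Together the 59 members took 1.64 to 1.93% of all counts in the liver, depending on the library, and Cyp2e1 alone took 28.2 to 37.1% of these. The most abundant member was Cyp2b9 in the Cyp2b subfamily at 0.86 RPKM, with Cyp2b10, the classic target of CAR, beside it at 0.838 RPKM. The leading Cyp2j gene was Cyp2j5, an epoxygenase of arachidonic acid, at 94 ± 5.95 RPKM.

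**Figure D1:**
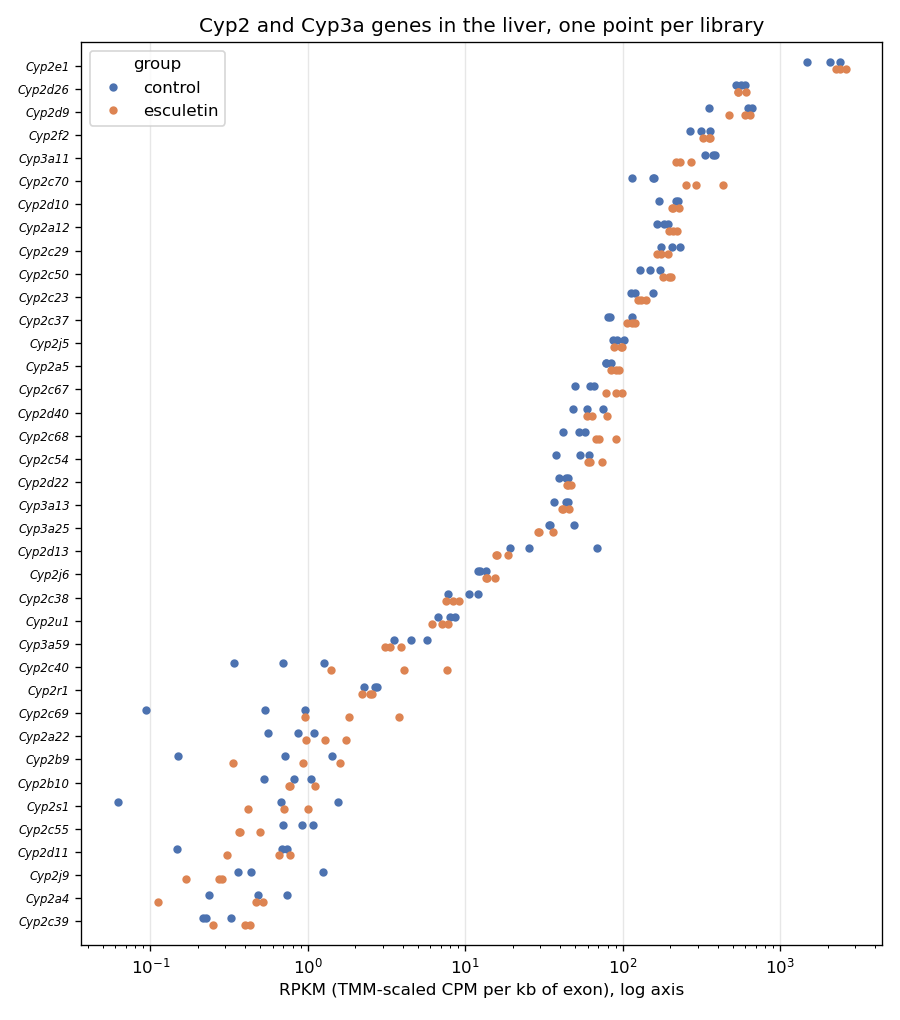
RPKM (log axis) of the 38 expressed members in each liver library, ordered by their mean, with control libraries in blue and esculetin libraries in orange. Levels run from 0.308 RPKM in Cyp2c39 to 2200.0 RPKM in Cyp2e1, and Cyp2c70 and Cyp3a11 are among the members whose groups do not overlap.

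The comparison of the livers asks which of these genes differed in level between mice given esculetin and mice given vehicle. Cyp2c genes tended to higher and Cyp3a genes to lower values with esculetin, led by Cyp2c70 (log2 fold change 1.19 ± 0.20, SE) and Cyp3a11 (-0.60 ± 0.14), but no member passed the test. In edgeR's quasi-likelihood fit over all genes, 0 of the 38 members had a Benjamini-Hochberg adjusted p under 0.05, where 0.0859% of all 12813 tested genes did, so the values below are differences that stayed short of the threshold. At an unadjusted p under 0.05 there were 12 members of 38, 8 higher and 4 lower with esculetin, against 8.37% of all tested genes (3.39% higher and 4.98% lower). DESeq2 called 4 of 50 members and 95 genes in all, and limma-voom called 0 of 38 members and 11 genes in all. The criterion of the study's methods is an unadjusted limma p under 0.05 with a fold change over 1.5. Refitted here with limma-voom, it passed 10 members, beside 3.89% of all tested genes.

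Groups that did not overlap in CPM were found for 12 members, 8 higher and 4 lower with esculetin, and for 14.5% of all tested genes (6.52% higher and 7.95% lower). The log2 fold change was above 0 for 26 members and below 0 for 12, and 46.5% of all tested genes were above 0. The median was 0.11 over the members and -0.02 over all tested genes. Scaled by library size alone, 22 of the 38 members were above 0, which is 57.9% in place of 68.4%. The background moved as well, with a median of 0.04 over the members and -0.09 over all tested genes. Without control replicate 1 the members above 0 numbered 23 of 38, and those at an unadjusted p under 0.05 numbered 10. The medians were then 0.065 over the members and -0.002 over all tested genes. The shares of all genes under these refits are not given here.

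**Figure D2:**
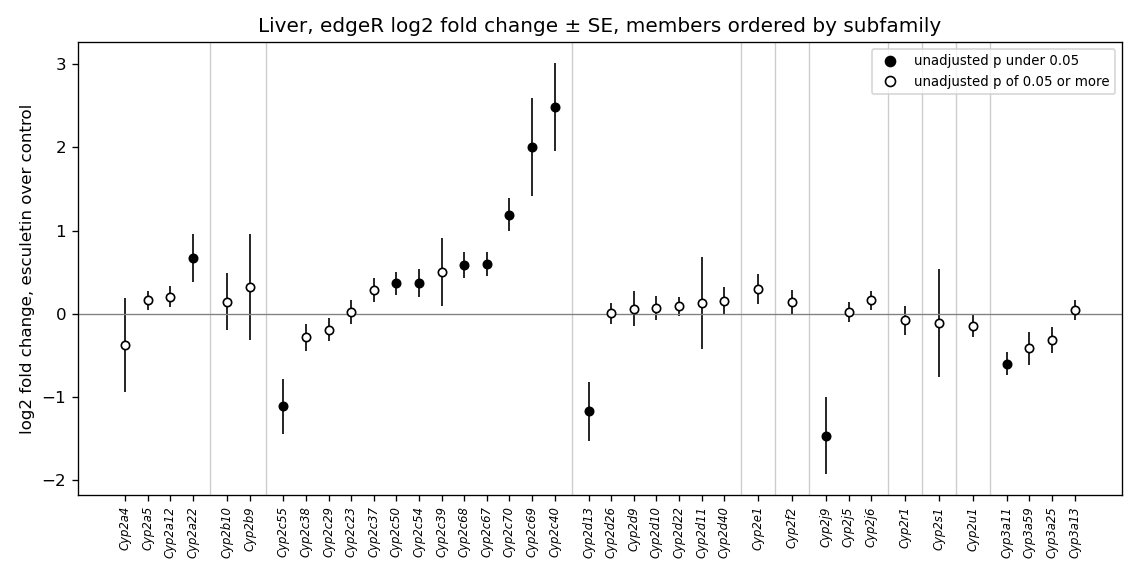
Log2 fold change of esculetin over control in the liver with its standard error (edgeR), for the 38 tested members ordered by subfamily; filled points have an unadjusted p under 0.05. Of the 12 filled points, 8 belong to Cyp2c genes, 7 of them above 0. Over all tested genes 8.37% had an unadjusted p under 0.05.

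The Cyp2c genes encode hydroxylases and epoxygenases of arachidonic acid, retinoids, steroids, bile acids and drugs. Of 15 Cyp2c members 13 were tested, 10 had a log2 fold change above 0, and 8 had an unadjusted p under 0.05, 7 higher and 1 lower with esculetin. Over all tested genes 46.5% were above 0, and 8.37% had an unadjusted p under 0.05, 3.39% higher and 4.98% lower. The 7 higher genes include the near-identical Cyp2c40, Cyp2c67, Cyp2c68 and Cyp2c69, so they are not 7 separate observations. Cyp2c50 and Cyp2c54, also among the 7, are 95.24% identical in their coding sequences and share a small part of their windows (3.079% and 1.681%). The summed level of all 15 Cyp2c members was 2387, 2934 and 2528 CPM in the control libraries and 3779, 3279 and 3239 CPM in the esculetin libraries. All 3 esculetin sums thus lay above all 3 control sums, with means of 2616 ± 284 and 3432 ± 301 CPM (SD, n = 3). In bulk tissue, more cells of a type and more RNA per cell cannot be told apart.

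Cyp2c70 accounted for the larger part of that difference. The gene lies at chr19:40141797-40175777 on the minus strand (GRCm39). Its level was 316, 433 and 429.9 CPM in the control libraries and 1192, 697 and 798 CPM in the esculetin libraries. The lowest esculetin library was well above the highest control, while esculetin replicate 1 stood above the other two. The difference amounted to 2.28-fold, with an adjusted p of 0.0527 by edgeR's quasi-likelihood test, just short of the threshold. Its log2 fold change was 1.06 without control replicate 1 (adjusted p = 0.0672). The call was reached with DESeq2, without a filter on low counts and without esculetin replicate 2, among others. Over all alternatives the adjusted p ran from 2.33e-14 to 0.274. Cyp2c70 made up 61.6% of the difference in the Cyp2c sum. With it left out, the sums were 2070.1, 2502 and 2098 CPM in controls and 2587, 2582 and 2441 CPM with esculetin, so that control replicate 2 then lay among the esculetin libraries.

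The 4 near-identical genes Cyp2c67, Cyp2c68, Cyp2c40 and Cyp2c69 are neighbours on chromosome 19 and were all higher in the esculetin libraries. Cyp2c67 had 97.5, 128.9 and 122 CPM in the control libraries and 177, 155 and 196 CPM in the esculetin libraries. Cyp2c68 had 109.9, 151 and 137 CPM against 236, 177 and 185 CPM. In both genes the groups did not overlap, the log2 fold changes were 0.60 ± 0.14 and 0.59 ± 0.15 (SE), and the adjusted p-values (edgeR) were 0.209 and 0.274. DESeq2 called both, and over the alternatives their log2 fold changes stayed between 0.44 and 0.69. Without control replicate 1 these were 0.49 for Cyp2c67 and 0.47 for Cyp2c68.

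Cyp2c40 and Cyp2c69, both known for female bias in mouse liver, were far less abundant. Cyp2c40 had 1.11, 4.14 and 2.27 CPM in the control libraries and 24.9, 4.61 and 13.3 CPM in the esculetin libraries. The libraries of each group differed widely among themselves, and esculetin replicate 2 was barely above control replicate 2. Its log2 fold change was 2.48 ± 0.53 (SE) with an adjusted p of 0.165 (edgeR). For Cyp2c69 the control libraries held 0.184, 1.87 and 1.05 CPM and the esculetin libraries 7.36, 1.88 and 3.56 CPM, a log2 fold change of 2.01 ± 0.59 (SE) with an adjusted p of 0.332. Here too esculetin replicate 2 was level with control replicate 2. The replicates ranked in the same order in both genes, which share windows with each other. Single libraries carried much of both values. Without esculetin replicate 1 the log2 fold change was 1.81 for Cyp2c40 (adjusted p = 0.652, edgeR) and 1.35 for Cyp2c69 (0.849), and without control replicate 2 it was 3.07 (0.242) and 2.77 (0.403). Without control replicate 1 it was 2.15 for Cyp2c40 (0.220) and 1.55 for Cyp2c69 (0.366). Over fits that each left out 1 library, Cyp2c40 was called once, without esculetin replicate 2 (adjusted p = 0.0302), and Cyp2c69 was not called.

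Among 10 members listed as female-biased in mouse liver, 5 were tested. Of these 2, Cyp2c40 and Cyp2c69, had an unadjusted p under 0.05, both higher, beside 3.39% of all tested genes. The other 3 tested were Cyp2c39, a retinoic acid hydroxylase, with a log2 fold change of 0.50, Cyp2b9 with 0.32 and Cyp2a4 with -0.38. The summed level of the 10 was 5.07 to 9.03 CPM in controls and 10.6 to 35.1 CPM with esculetin. Without Cyp2c40 and Cyp2c69 the sums overlapped, at 4.98, 3.01 and 1.75 CPM in controls and 2.89, 4.16 and 4.01 CPM with esculetin.

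**Figure D3:**
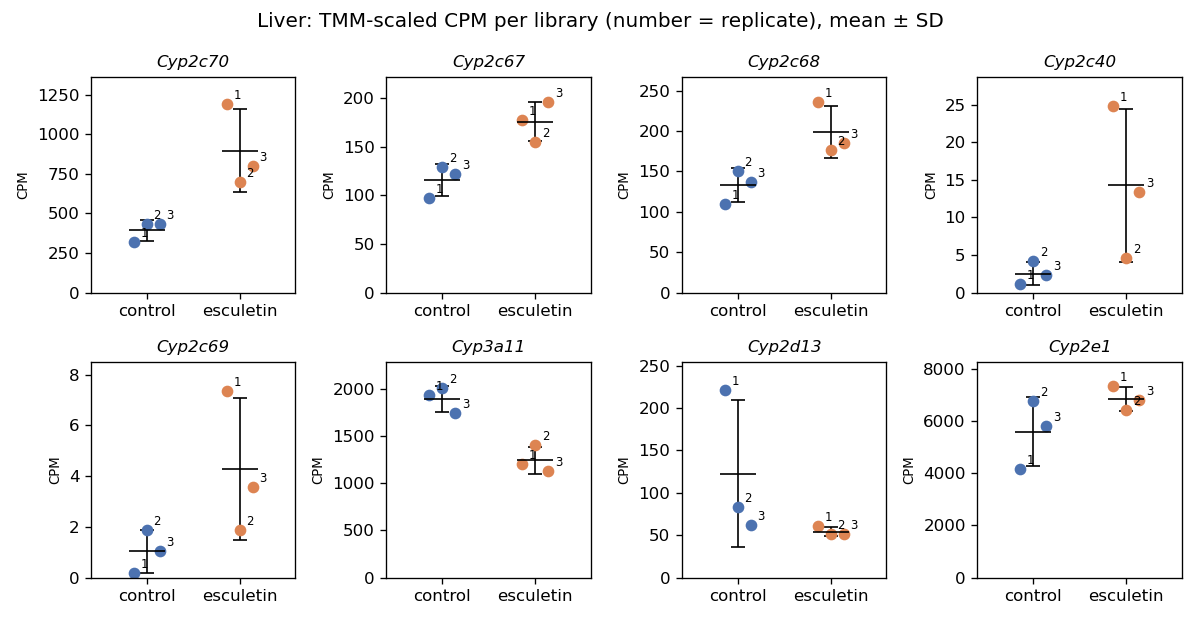
TMM-scaled CPM of 8 members in each liver library, with the mean and standard deviation of 3 libraries; numbers beside the points give the replicate. Cyp2c70 and Cyp3a11 show groups apart from each other, Cyp2d13 has 1 high control library, replicate 1, and in Cyp2e1 that same replicate is the lowest.

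Cyp2c50 and Cyp2c54, which oxidize arachidonic and linoleic acid and respond to CAR, differed less. Cyp2c50 had 470.3, 631 and 549.6 CPM in the control libraries against 739.8, 723 and 661 CPM, all 3 above the controls, a 1.29-fold difference (adjusted p = 0.51, edgeR). Cyp2c54 had 153, 247 and 216 CPM against 244, 301 and 253 CPM, where esculetin replicate 1 fell below control replicate 2 (1.29-fold, adjusted p = 0.578). Without control replicate 1 the log2 fold change of Cyp2c54 was 0.20, in place of 0.37, and its unadjusted p 0.102 in the same model. That of Cyp2c50 was then 0.27, in place of 0.36.

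Cyp2c29, one of the most abundant Cyp2c genes and a CAR and PXR target, had 766, 687 and 584 CPM in controls and 584, 647 and 551 CPM with esculetin, groups that overlapped (log2 fold change -0.19 ± 0.14, adjusted p = 0.727, edgeR). Cyp2c55, an arachidonic acid hydroxylase that CAR and PXR are known to induce, was the Cyp2c gene with the lowest log2 fold change. Its counts were 37, 35 and 46 in controls and 17, 14 and 19 with esculetin, or 2.27, 1.73 and 2.68 against 0.926, 0.909 and 1.23 CPM. All esculetin libraries lay below all controls, at a 2.17-fold lower level with an adjusted p of 0.339 (edgeR).

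Along chromosome 19 the order of the Cyp2c genes ran parallel to these signs. The 3 tested genes at the start of the cluster, Cyp2c55, Cyp2c29 and Cyp2c38, had log2 fold changes of -1.12, -0.19 and -0.28. Cyp2c65 and Cyp2c66, which lie between Cyp2c55 and Cyp2c29, had no count in the liver. The next 9 genes, from Cyp2c39 to Cyp2c70, were all above 0, with values from 0.29 in Cyp2c37 to 2.48 in Cyp2c40. Cyp2c23, which is 3817674 bases away from Cyp2c70, had 0.02. The order is given as a description with no test, and several of the neighbours share sequence.

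**Figure D4:**
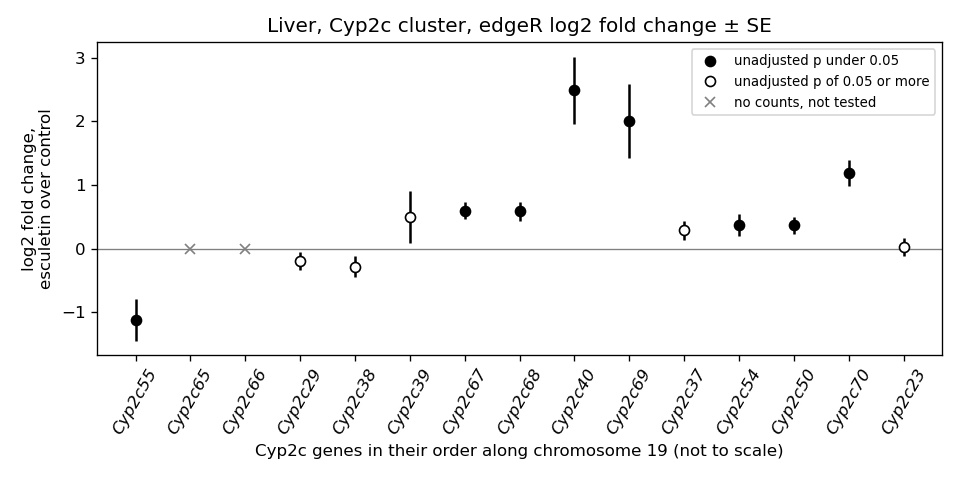
Log2 fold change of esculetin over control in the liver, with its standard error (edgeR), for the Cyp2c genes in their order along chromosome 19 (not to scale); crosses mark 2 genes without counts. The 3 tested genes at the left are below 0, the next 9 are above 0, and Cyp2c23, far from the cluster, is at 0.02.

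The Cyp3a genes, which oxidize a broad range of large drugs and steroids, had lower values with esculetin in 3 of the 4 tested members. The 9 Cyp3a genes together had 2494, 2439 and 2157 CPM in control libraries and 1599, 1849 and 1513 CPM in esculetin libraries, with no overlap and means of 2363 ± 181 and 1654 ± 175 CPM (SD, n = 3). Cyp3a11, at chr5:145791236-145816867 on the minus strand (GRCm39), made up 91.3% of this difference. Without it the sums overlapped, at 560.3, 429.8 and 413 CPM in controls and 395, 441 and 383 CPM with esculetin.

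Cyp3a11 had 1934, 2009.6 and 1743 CPM in the control libraries and 1205, 1408 and 1129.9 CPM in the esculetin libraries. Every esculetin library was below every control library, and the mean was 1.52-fold lower. The adjusted p was 0.186 (edgeR) and 0.00197 with DESeq2. The log2 fold change was -0.58 without control replicate 1 and ran from -0.71 to -0.55 over all alternatives, with adjusted p-values from 0.00197 to 0.823. Cyp3a59 (log2 fold change -0.41 ± 0.20) and Cyp3a25 (-0.32 ± 0.16) had unadjusted p-values of 0.0572 and 0.0716 in the edgeR model and groups that overlapped; they are 97.48% identical in their coding sequences. Cyp3a13, best known from the intestine, had 135 ± 14.7 CPM in controls and 139.6 ± 7.83 CPM with esculetin (SD, n = 3). Cyp3a41a and Cyp3a41b, which share over 82% of their windows, had at most 2 counts in a liver library.

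The RefSeq promoter table (GRCm38.p6) held 50 of the 59 members in 53 windows, and 3 of its windows, of 250 bases before the annotated start, are printed here because Cyp2c70 and Cyp3a11 led the differences in opposite directions and Cyp2c55 is compared between liver and cells. Each reads 5′ to 3′ in the direction of the gene, and the capitals mark matches, on either strand, to TATAAA or to AGGTCA, the half-site of nuclear receptors.
Cyp2c70, chr19:40187287-40187536, minus strand: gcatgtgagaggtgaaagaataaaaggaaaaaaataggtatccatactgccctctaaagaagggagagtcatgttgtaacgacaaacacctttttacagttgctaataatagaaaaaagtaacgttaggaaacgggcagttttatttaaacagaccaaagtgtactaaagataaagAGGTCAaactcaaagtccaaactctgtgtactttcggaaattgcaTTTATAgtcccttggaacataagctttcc
Cyp3a11, chr5:145879855-145880104, minus strand: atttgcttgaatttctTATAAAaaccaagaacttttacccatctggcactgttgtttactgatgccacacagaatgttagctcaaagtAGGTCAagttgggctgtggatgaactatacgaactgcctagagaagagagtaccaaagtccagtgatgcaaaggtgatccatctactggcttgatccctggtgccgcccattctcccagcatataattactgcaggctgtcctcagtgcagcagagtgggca
Cyp2c55, chr19:39006769-39007018, plus strand: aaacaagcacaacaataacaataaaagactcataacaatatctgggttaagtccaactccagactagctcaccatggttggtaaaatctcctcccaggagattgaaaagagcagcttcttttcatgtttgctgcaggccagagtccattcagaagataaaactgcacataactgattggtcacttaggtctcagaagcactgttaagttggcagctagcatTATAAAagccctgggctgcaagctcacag
In the Cyp2c70 window AGGTCA began 74 bases before the start, and in the Cyp3a11 window 162 bases before it. Both genes thus had a match although their values differed in opposite directions. Cyp2c55 had none in this window, and its TATAAA match began 29 bases before the start. Over the 53 windows of members, AGGTCA was present in 30.2% and TATAAA in 43.4%, against 14% and 12.4% of all 32851 windows in the table. TTGCNNAA, a shortened form of the C/EBP motif, was present in 26.4% of the windows of members and 9.56% of all, and GCGTG, the core bound by the aryl hydrocarbon receptor, in 15.1% and 28.2%. All 4 were searched on both strands without allowance for overlaps between motifs, and several members have promoters that arose by duplication. A match describes letters and not a bound site.

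Cyp2a5, known as the coumarin hydroxylase of mouse liver, was similar in both groups. It had 161, 175 and 163 CPM in controls and 186, 175 and 196 CPM with esculetin, where the highest control and the lowest esculetin library were almost equal (log2 fold change 0.16 ± 0.11, adjusted p = 0.727, edgeR). Cyp2a12, a hydroxylase of steroids and bile acids, had 568, 634 and 668 CPM against 759, 679 and 716 CPM. Its groups were next to each other without overlap, and the log2 fold change was 0.20 ± 0.12 (adjusted p = 0.681). Cyp2a22, a scarce relative of Cyp2a12, had 3.49 ± 1.12 and 5.53 ± 1.62 CPM (SD, n = 3), groups that overlapped, with an unadjusted p of 0.0416 in the edgeR model and an adjusted p of 0.569. Exons of long noncoding genes on the opposite strand cover 30.9% of the exon bases of Cyp2a5 and 19.3% of those of Cyp2a12, and since strand use in the counting is not given, reads of the partners cannot be told apart.

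The expressed Cyp2b genes, Cyp2b10 and Cyp2b9, were scarce. Cyp2b10 had 2.21, 1.73 and 1.11 CPM in controls and 1.63, 2.34 and 1.62 CPM with esculetin (log2 fold change 0.15 ± 0.34, adjusted p = 0.93, edgeR). The groups overlapped, and the sign turned in fits without control replicate 3 or without esculetin replicate 2. Cyp2b9 had 1.48 ± 1.24 and 1.86 ± 1.23 CPM (SD, n = 3) and overlapped likewise, and its sign turned in the same fits.

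Among the Cyp2d genes, which include steroid hydroxylases and the relatives of the human debrisoquine hydroxylase, 6 of 7 tested members had an unadjusted p over 0.05 and log2 fold changes from 0.00 to 0.15. Cyp2d9 ranged from 1000.6 to 1873 CPM in controls and from 1349 to 1823 CPM with esculetin. Cyp2d26 had 1179.7 ± 77.4 and 1182 ± 84.2 CPM, and Cyp2d10 1073 ± 159 and 1126 ± 63.9 CPM (SD, n = 3). The groups of these 3 abundant genes overlapped. Without control replicate 1 the log2 fold changes of Cyp2d9, Cyp2d26 and Cyp2d10 were -0.17, -0.04 and -0.04, so that no direction can be given for them.

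Cyp2d13 was the exception in this subfamily. Its control libraries had 222, 82.8 and 62.5 CPM and its esculetin libraries 60.2, 51 and 51.3 CPM. Control replicate 1 was far above all others, and the esculetin libraries were just below the lowest control. The log2 fold change was -1.17 ± 0.35 with all libraries (adjusted p = 0.354, edgeR) and -0.42 ± 0.13 without control replicate 1 (adjusted p = 0.349). The larger size with all libraries thus rested on that 1 library, while the direction stayed.

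Cyp2e1 had 4166, 6773 and 5800.2 CPM in the control libraries and 7335, 6408 and 6794 CPM in the esculetin libraries. Control replicate 1 was the lowest of the 6, and control replicate 2 lay between esculetin libraries. The log2 fold change of 0.30 ± 0.18 had an adjusted p of 0.679 (edgeR), and without control replicate 1 it was 0.13. Cyp2f2 behaved likewise, with 887, 1194 and 1046 CPM in controls and 1189, 1079 and 1175 CPM with esculetin, and with log2 fold changes of 0.14 with and 0.04 without that library. In both genes the groups overlapped.

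The Cyp2j genes encode epoxygenases of polyunsaturated fatty acids. Cyp2j5 had 412 ± 33.1 and 418 ± 24.5 CPM (SD, n = 3), and Cyp2j6 51.6 ± 3.18 and 57.6 ± 4.07 CPM, both with overlapping groups. Cyp2j9 was scarce, at 6.2, 2.17 and 1.81 CPM in controls and 1.36, 0.844 and 1.42 CPM with esculetin. No esculetin library reached the lowest control, yet control replicate 1 was again far above the rest. Its log2 fold change was -1.47 ± 0.46 (adjusted p = 0.397, edgeR) and -0.71 without control replicate 1, where the unadjusted p was 0.0671 in the same model. Cyp2r1, the vitamin D hydroxylase of the liver, had 8.81 ± 0.873 and 8.32 ± 0.617 CPM (SD, n = 3).

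Genes of the wider P450 system were examined as lists. At an unadjusted p under 0.05 (edgeR), 3.39% of all tested liver genes were higher and 4.98% lower. These shares stand beside the counts of each list below. Of 8 redox partners none was called in the liver, and only Pgrmc2, a heme-binding membrane protein, had an unadjusted p under 0.05 in the edgeR model, with a log2 fold change of -0.31. P450 oxidoreductase itself (Por) had 87.6 ± 18.7 and 92.7 ± 21.9 CPM (SD, n = 3). Among 19 tested regulators, 2 were higher and 1 lower at an unadjusted p under 0.05. Cebpb, the gene of the transcription factor C/EBPβ, had 64 ± 14.2 CPM in controls and 105 ± 13.4 CPM with esculetin, Onecut1 3.08 ± 1.34 and 5.8 ± 2.82 CPM, and Nr1h4, which encodes the bile acid receptor FXR, 114 ± 2.13 and 85 ± 4.36 CPM (SD, n = 3). Nr1i3, the gene of CAR, had a log2 fold change of -0.15 ± 0.13. The medians of the 2 lists were 0.05 and -0.02, beside -0.02 over all genes.

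Targets of CAR and PXR outside the families gave 3 higher and 5 lower genes at an unadjusted p under 0.05 among 22 tested, none called, with a median log2 fold change of -0.13. The 4 with the smallest p-values were all lower with esculetin. They were the organic anion transporter Slco1a4 (-1.02 ± 0.22), the epoxide hydrolase Ephx1 (-0.55 ± 0.14) and the glutathione transferases Gsta1 (-1.40 ± 0.40) and Gstm3 (-0.68 ± 0.20). Alas1, described below with the heme genes, is on this list too and was higher with esculetin. Of 12 members of the families listed as induced by CAR or PXR, 11 were tested and none was called. Of these 11, 7 were above 0 and 4 below. At an unadjusted p under 0.05 (edgeR), 2 were higher (Cyp2c50 and Cyp2c54) and 2 lower (Cyp3a11 and Cyp2c55). The shares of all tested genes were 3.39% higher and 4.98% lower. The median of this list was 0.15, and its summed level was 3827 to 4403 CPM in controls and 3380.3 to 3929 CPM with esculetin.

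Heme is the cofactor of every member, and of 13 tested genes of heme synthesis and breakdown none was called, 2 were higher and 0 lower at an unadjusted p under 0.05 in the edgeR model. Alas1, whose product catalyses the rate-limiting step of heme synthesis, had 113 ± 35.6 CPM in controls and 208 ± 80.5 CPM with esculetin (SD, n = 3), at a log2 fold change of 0.88 ± 0.26 (SE). The median of this list was 0.09. Among 21 tested P450 genes of other families, 2 were higher and 4 lower at an unadjusted p under 0.05, with a median of -0.01. The fatty acid hydroxylase genes Cyp4a31 and Cyp4a14 had log2 fold changes of -1.23 ± 0.20 (adjusted p = 0.0518, edgeR) and -1.20 ± 0.37, Cyp7b1 of bile acid synthesis 1.19 ± 0.28, and Cyp1a2, an aryl hydrocarbon receptor target, 0.43 ± 0.14.

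Many members are restricted to one part of the liver lobule, so zonal markers outside the families were read beside these results. The 16 pericentral markers summed to 4784 to 5670.2 CPM in controls and 5892 to 6924 CPM with esculetin, 5 higher and 1 lower at an unadjusted p under 0.05. The 15 periportal markers summed to 16180.2 to 21709 CPM and 22299.7 to 24258 CPM, also with 5 higher and 1 lower. Over all tested genes 3.39% were higher and 4.98% lower at that threshold. The pericentral and periportal sums were both above all controls in every esculetin library. Their part in the differences of the Cyp2c genes was not tested. Hepatocyte markers overlapped between the groups, at 118575 to 138762 and 108466 to 135026 CPM, and blood markers at 167 to 837 and 278 to 547 CPM. No marker of these or of the other cell types listed was called in the liver.

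In RAW264.7 cells the families were nearly silent. Of the 59 members 42 had no count in any of the 6 cell libraries, 3 were tested, and the other 14 had at most 41 counts in all. Cyp2e1 had 1 count over the 6 cell libraries and Cyp3a11 had none, where a count of 0 allows 0.146 to 0.220 CPM depending on the library. All members together took 0.000715 to 0.00142% of all counts in the cells, depending on the library. The 3 tested members were Cyp2c55, Cyp2u1 and Cyp2s1, and edgeR called 2 of them, where 57.7% of all 13277 tested genes were called. The groups of the same 2 members did not overlap in CPM, which held for 64.1% of all tested genes.

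Cyp2c55 rose in the cells with esculetin. Its counts were 69, 60 and 68 in controls and 129, 153 and 182 with esculetin, or 3.58, 3.23 and 3.31 against 9.44, 10.4 and 10.1 CPM. The groups were far apart and narrow. The level rose 2.97-fold (log2 fold change 1.57 ± 0.16, adjusted p = 1.31e-05, edgeR), and the call held under all 14 refits, with log2 fold changes from 1.502 to 1.608. Per length, Cyp2c55 had 1.35 RPKM in control and 4.02 RPKM in esculetin cells, and 0.894 and 0.41 RPKM in the livers, though the tables were scaled separately.

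Cyp2u1, which hydroxylates long-chain fatty acids, fell in the cells. Controls held 27, 38 and 39 counts and esculetin libraries 7, 10 and 9. The groups did not overlap, and the log2 fold change was -1.65 ± 0.36 with an adjusted p of 0.0024 (edgeR), from -1.80 to -1.54 over the refits. Cyp2s1, an extrahepatic member, had 22, 34 and 38 counts in controls and 19, 36 and 44 counts with esculetin. These overlapped, and the log2 fold change of 0.39 ± 0.33 did not pass the test (adjusted p = 0.331). Exons of long noncoding genes on the opposite strand cover 8.49% of the exon bases of Cyp2u1 and 9.06% of those of Cyp2s1. Since strand use in the counting is not given, reads of these partners cannot be told apart.

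The difference between the effects in cells and liver was tested for these 3 genes in a model of all 12 libraries, in which 27.1% of 15709 genes had an adjusted p under 0.05. For Cyp2c55 the effect in the cells exceeded that in the liver by 2.65 ± 0.34 log2 units (adjusted p = 4.28e-05, edgeR). For Cyp2u1 the effect in the cells minus that in the liver was -1.54 ± 0.32 (adjusted p = 0.00203). In the liver Cyp2u1 had 50 ± 6.36 CPM in controls and 45 ± 5.37 CPM with esculetin (SD, n = 3), groups that overlapped. Cyp2s1 gave 0.47 ± 0.88 (adjusted p = 0.778), and its liver libraries ran from 0.307 to 7.63 CPM in controls alone. Dose, route, time and fat exposure differ between mice and cells, so none of these can be told apart from the tissue in this comparison.

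**Figure D5:**
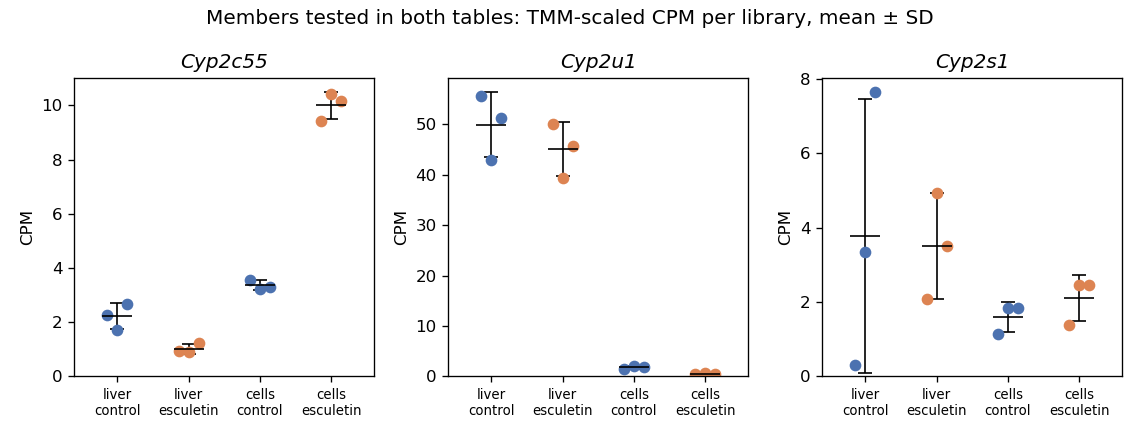
TMM-scaled CPM of the 3 members tested in both tables, per library, with mean and standard deviation of 3 libraries in each of the 4 groups; liver and cells were scaled separately. Cyp2c55 is lower with esculetin in the liver (2.23 and 1.02 CPM, not called) and higher in the cells (3.37 and 10 CPM), and Cyp2u1 is scarce in the cells, at 1.78 and 0.565 CPM.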

How the data were processed

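RNA was sequenced by the authors as 150-bp paired ends, mapped with HISAT2 2.2.1 to GRCm39 and counted per gene with featureCounts; the deposited values are raw counts, in separate tables for liver and cells. The labels list GRCm39 and mm10; strand use, multi-mapping reads and the annotation release were not given in the sources used here. Symbols, exon lengths and coordinates came from GENCODE vM39 (GRCm39).

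Each table was fitted in R 4.3.3 with edgeR 4.0.16 (quasi-likelihood, filterByExpr, TMM, treatment as only term), with two-sided p-values adjusted by Benjamini-Hochberg over all tested genes and a threshold of 0.05. The fit was tested on simulated data. Alternatives were other scalings, filters, DESeq2 1.42.0, limma-voom (limma 3.58.1), the study's criterion (unadjusted p under 0.05, fold change over 1.5), a replicate block, leaving out each library, and transcript length. Python 3.11.15 (pandas 2.3.3, numpy 2.4.6, plots by matplotlib 3.10.9) served for tables and figures.

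Members and lists were chosen with earlier results of these data known. Members were named in the text if they had an unadjusted liver p under 0.05, were among the 10 most abundant or led their subfamily. Those with groups apart at a mean of 10 CPM or more, or tested in the cells, were named too. Cyp2b10, Cyp3a11, Cyp2c29 and Cyp2e1 were always named. From the lists, up to 4 genes with the smallest p were named, while zonal and cell type markers were given as counts and sums only. Members given outside this rule, such as Cyp2c39, Cyp2a4, Cyp3a25 and Cyp3a59, and Por and Nr1i3, were chosen after their values were seen. 1 gene of a list is not reported here. Errors of CPM are SD and of log2 fold changes SE; counts of 0 and low counts carry counting error that limits precision.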

Additional observations from a re-analysis of the deposited data

Results flagged for a closer look

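The effect of esculetin on Cyp2c55 differed between the cells and the liver by 2.65 log2 units (interaction of tissue and treatment over 12 libraries, edgeR, adjusted p = 4.28e-05). All 3 esculetin libraries of the cells were above all 3 controls, at log2 fold change 1.57, and all 3 esculetin libraries of the liver were below all 3 controls, at -1.12, a difference that was not called by itself. Counts were low in both tables: the liver libraries held 14 to 46 and the cell libraries 60 to 182.

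The effect on Cyp2u1 differed by -1.54 log2 units in the same test (adjusted p = 0.00203). Its log2 fold change was -1.65 in the cells, where counts ran from 7 to 39, and -0.15 in the liver, where the groups overlapped. Exons of a long noncoding gene on the opposite strand cover 8.49% of its exon bases, and strand use in the counting is not given. Groups of 3 libraries were too small for a test of single outlying libraries.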

How the results depend on the processing

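In the liver, calls depended on the model and the filter. Against 11 genes and 0 of 38 members called, DESeq2 called 95 genes and 4 of 50 members. Fitting without a filter on low counts called 339 genes and 8 of 50 members, and a replicate block 123 genes and 4 of 38 members. Scaling by library size alone called 0 genes, and the study's criterion passed 499 genes and 10 members. Leaving out 1 library gave 0 to 31 genes and 0 to 2 members. The members at an unadjusted p under 0.05 numbered 10 to 16 under all refits, and those above 0 numbered 20 to 32, of 36 to 50 tested. In the cells the study's criterion, refitted here with limma-voom, passed 5041 genes against 7667. The paper reported far fewer differentially expressed genes for these cells, so the refit did not reproduce its counts. Under every alternative 2 members were called in the cells. Deviations of same-numbered libraries correlated at 0.14, -0.01 and 0.10 in the liver and 0.16, -0.03 and 0.08 in the cells. In both tables, control replicates 1 and 3 correlated most with the esculetin library of the same number. Control replicate 2 correlated most with esculetin replicate 3, at 0.09 (liver) and 0.11 (cells). Since these values are mixed and small, they do not settle whether the replicate numbers pair the samples. The 4 members called with the block were Cyp2c70, Cyp2c40, Cyp2d13 and Cyp2c67.

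Signs turned for 7 of the named members, none of them called. Cyp2d26 (0.00) became -0.0132 with a filter at 1 CPM, -0.0604 by library size alone and -0.0029 without a filter, and ran from -0.0704 to 0.0468 without single libraries. Cyp2j5 became -0.0518 by library size alone and ran from -0.0479 to 0.0895, and Cyp2s1 (-0.12) became 0.60 with limma-voom, which the study's criterion uses too, and 0.29 with the block, and ran from -0.65 to 0.87. Cyp2b10 ran from -0.10 to 0.38, Cyp2b9 from -0.29 to 1.09, Cyp2d10 from -0.0445 to 0.141 and Cyp2d9 from -0.17 to 0.22. The cause was not tested. With the longest transcript in place of all exons, RPKM was higher by more than the spread for 9 of the 10 most abundant members, and Cyp2e1 stayed first at 2950.0. Low counts limit Cyp2b, Cyp2c39, Cyp2c55, Cyp2c69 and Cyp2j9.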
